A study of Homo sapiens with 28 samples.

Results

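Peaks of N6-methyladenosine (m6A) whose summit lay in a coding exon, away from the stop codon and from transcript starts, made up 63649 of the 495694 peaks listed on chromosomes 1 to 22 and X, or 12.8%. They were the summits inside the coding sequence of the canonical GENCODE transcript of a protein-coding gene, on the strand of the peak, more than 200 bases along the spliced transcript from its stop codon. Promoter summits were left out, that is, those between 1000 bases before and 100 bases after a transcript start on either of the strands. The choice used positions only and no peak height. Just inside the limit, 2469 summits lay 201 to 250 bases from the stop codon, with a median fold of 6.73. Just outside it, 3773 summits lay 151 to 200 bases away, with a median fold of 7.17.

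The peaks came from methylated RNA immunoprecipitation sequencing (MeRIP-seq), in which an antibody against m6A enriches RNA fragments that carry it, of chromatin-associated RNA (caRNA), the RNA kept in the chromatin fraction of the cell. The 14 libraries were HepG2 WT (hepatoma cells, n = 2), K562 WT (chronic myelogenous leukaemia cells, n = 2), K562 Control and K562 RBFOX2 KD (n = 2 each), and NB4 Control and NB4 RBFOX2 KD (acute promyelocytic leukaemia cells, n = 3 each). A lentiviral short hairpin RNA with puromycin selection was used in the Control and KD groups, non-targeting in Control and directed against RBFOX2, an RNA-binding protein, in KD, and which RBFOX2 hairpin a library had is not in the labels. WT cells carried none, and each library is 1 peak list. A further 14 input libraries were not analysed here. The study's methods call the MeRIP-seq replicates biological, but neither they nor the labels say whether libraries of 1 group came from separate cultures, so p-values measure only the spread between these libraries.

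The m6A mark is set during transcription by a methyltransferase complex around METTL3 and METTL14, mostly at adenosines in the sequence DRACH (D is A, G or U; R is A or G; H is A, C or U), of which GGACU is a preferred form. In mature mRNA it is known from long internal exons, the region around the stop codon and the 3′ untranslated region. Exon junction complexes, which are deposited upstream of splice junctions, are known to keep methylation low near junctions and in short exons. The peaks described here are therefore grouped by the length and the order of their exon.

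The 14 lists held between 22635 and 44043 peaks on these chromosomes, and between 3839 and 4899 of them lay in coding exons. The depth recovered from the lists ran from 10.8 to 25.6 M (mega) effective reads in 11 libraries. The other 3 (both of HepG2 and NB4 Control 3) had pileups that were mostly not whole numbers, so their depth is not given in reads. No batch is named in the labels. Peak height is given as the fold of the summit over the local background, as the peak caller wrote it, and it can move with the amount of a transcript as well as with its methylation. HepG2 WT 2 and K562 Control 2 stood apart from their replicates by more peaks in short exons, and the results that lean on them are also given without them. Of the hepatocyte markers, 9 of 12 had any peak in HepG2, 1 in K562 and 0 in NB4. Of the erythroid markers 11 of 12 had one in K562, 3 in NB4 and 2 in HepG2. The myeloid markers were less distinct, with 10 of 12 in NB4, 6 in K562 and 4 in HepG2. Of all 18791 genes with eligible coding sequence, 7485 had any peak in HepG2, 9703 in K562 and 9118 in NB4. A peak in 1 list of the line was enough here, and HepG2 has 2 lists against 6 in each other line.

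The sequence around the summit is shown for the 3 highest-ranked regions of each exon order that were listed in all 14 libraries, followed by the highest-ranked region found in HepG2, K562 and NB4 alone. The listing is that of the whole region, and the stretch shown need not lie under a peak in every list. Each line runs 5′ to 3′ on the strand of the gene and was read from the hg38 reference, with T for U, and the capitals mark the GGACT or, where none lay within 50 bases of the median summit, the nearest other DRACH sequence.
WDR81, exon 1 of 10, chr17:1728379-1728407, plus strand: tgacagcagccaGGACTtgaagcaaagcg
PPP1R9B, exon 1 of 10, chr17:50149328-50149356, minus strand: cttctcggaggcGGACTtggtggacgtga
ARID1A, exon 1 of 20, chr1:26696914-26696942, plus strand: caacaacatggcGGACAacaaagccctgg
LMTK3, exon 11 of 15, chr19:48498276-48498304, minus strand: cagtgaacggggTGACAgtgctggagaac
FANCE, exon 2 of 10, chr6:35456062-35456090, plus strand: agaggagaacagGGACTcccagcagcctg
GPATCH3, exon 2 of 7, chr1:26897441-26897469, minus strand: ttttgagtatgaGGACTcagagactgtgg
DIDO1, exon 16 of 16, chr20:62879433-62879461, minus strand: gggcaaggagtgGGACCgcagccgggagc
ZBTB4, exon 4 of 4, chr17:7463107-7463135, minus strand: gccgcatctcagAGACTgacctgcgtcct
TAF1C, exon 15 of 15, chr16:84179393-84179421, minus strand: gtcaggcctagaGGACAagctcagtgagc
CSTF2T, exon 1 of 1, chr10:51698278-51698306, minus strand: ctcgagcgatggAGACTcgtgccatggaa
RANBP6, exon 1 of 1, chr9:6013206-6013234, minus strand: tgccttaatgatGAACActtggaagaact
RBM15B, exon 1 of 1, chr3:51393356-51393384, plus strand: ctcagcaacagcAGACAtggggctgagga
ARHGAP29, exon 23 of 23, chr1:94174378-94174406, minus strand: acagtatgaacaAAACAgcctaactgcca
NALF1, exon 1 of 3, chr13:107865849-107865877, minus strand: tcccaacactttGAACTgcagtctggatg
SYNPO2, exon 4 of 5, chr4:119030162-119030190, plus strand: gactgggattctGGACTggtggacattga

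Sequences were searched for 25 of the regions named below as listed in all 14 libraries, as lying in the longest exons or as found in 1 line alone. Of these, 8 had GGACT within 50 bases of the median summit and the other 17 had another DRACH sequence. Such a match is a description of the letters and not a mapped site. Among the regions named below for the knockdown comparisons, those of PPM1F, NDOR1 and DGKE had neither.

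Over all exons together, peaks were most frequent in long ones. Per megabase of coding sequence that could hold a peak, in genes with at least 1 peak in the library, exons under 100 bases held 28.8 ± 12.1 peaks (SD, n = 14 libraries) and exons of 100 to under 200 bases 86.8 ± 30.4. Exons of 200 to under 400 bases held 428 ± 71.4, exons of 400 to under 1000 bases 1236 ± 24.8 and exons of 1000 bases or more 802 ± 112. The density in exons of 400 bases or more was 13.7 ± 4.21 times that in exons under 200 bases. This ratio was above 1 in each library, lowest in K562 Control 2 (5.51) and HepG2 WT 2 (8.04), and highest in NB4 Control 1 (21.7). Without those 2 low libraries it was 14.9. All libraries nearly coincided at 400 to under 1000 bases (1193 to 1273 peaks per megabase), whereas they spread from 15.6 to 57.2 below 100 bases. The rise with length was that of internal exons, which held 84.2 ± 30.4 peaks per megabase at 100 to under 200 bases and 415 ± 69.7 at 200 to under 400 bases. First exons had no such rise, with 939 ± 488 at 100 to under 200 bases (189 summits over the 14 libraries) and 747 ± 252 at 200 to under 400 bases.

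**Figure D1:**
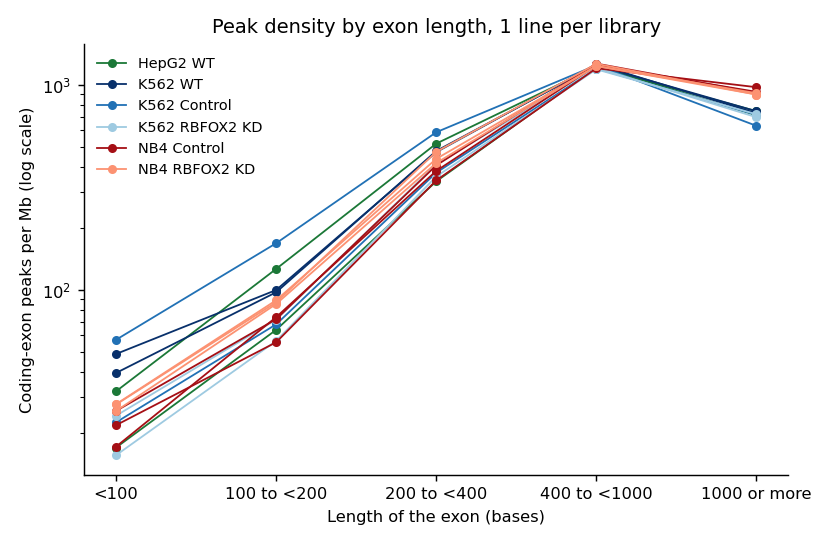
Coding-exon peaks per megabase of eligible coding sequence (log scale) against the length of the exon, for exons of every order together, with 1 line for each of the 14 libraries, coloured by group. Every line rises to exons of 400 to under 1000 bases, where the libraries lie between 1193 and 1273, and the 2 uppermost lines at 100 to under 200 bases are K562 Control 2 and HepG2 WT 2.

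Counted by exons rather than by bases, 0.202% ± 0.0850 of exons under 100 bases (SD, n = 14) and 1.10% ± 0.385 of those of 100 to under 200 bases held a summit. The share was 8.67% ± 1.45 at 200 to under 400 bases, 44.7% ± 0.907 at 400 to under 1000 bases and 47.2% ± 1.91 at 1000 bases or more. Peaks in exons of 1000 bases or more were the widest, with a median of 584 ± 160 bases against 478 ± 59.3 bases at 400 to under 1000 bases, and they covered 59.1% ± 5.94 of the eligible bases against 57.3% ± 4.93. A wide peak has 1 summit, and its part in the lower density of the longest exons was not tested.

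The rank of peaks followed the same order as frequency. Peaks were ranked by -log10 q within their list and the rank expressed as a percentile, so that lists of unequal depth could be set side by side. The median percentile was 30.1 ± 3.35 in exons under 100 bases, 46.0 ± 4.58 at 100 to under 200 bases and 48.6 ± 3.52 at 200 to under 400 bases. It was 78.3 ± 4.72 at 400 to under 1000 bases and 72.6 ± 4.61 at 1000 bases or more (SD, n = 14). Over all exon lengths, coding-exon peaks had a median percentile of 67.5 ± 2.84, next to 63.5 ± 1.77 for peaks within 200 bases of the stop codon, 57.5 ± 1.55 in the distal 3′ untranslated region and 42.6 ± 2.27 in introns on the sense strand. The ranges over libraries did not overlap between coding exons (63.0 to 71.3), distal 3′ untranslated regions (54.8 to 59.2) and introns (38.9 to 45.7), but that of coding exons overlapped the stop codon class (59.5 to 66.0). This order is one of rank and not of fold. Median folds were 7.37 ± 2.49 in coding exons, 7.30 ± 2.02 in the stop codon class and 6.84 ± 1.63 in distal 3′ untranslated regions (SD, n = 14). Coding exons lay above distal 3′ untranslated regions in some libraries (11.2 against 9.01 in K562 Control 1). In others they lay below (6.72 against 6.86 in NB4 Control 1).

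By order, internal exons held most of the peaks (64.2% ± 2.85), then last exons (27.9% ± 2.59), first exons (5.86% ± 0.753) and single-exon transcripts (2.03% ± 0.244). Per megabase they came in another order, with 820 ± 104 peaks in last exons, 784 ± 104 in first exons, 749 ± 61.9 in single-exon transcripts and 315 ± 23.1 in internal exons. The order of the densities changed with exon length. Below 400 bases first exons had the higher mean density, by the values given above. Among exons of 400 to under 1000 bases, internal exons held 1323 ± 23.6 peaks per megabase, last exons 916 ± 96.3 and first exons 793 ± 87.6 (SD, n = 14). Among exons of 1000 bases or more the values were 794 ± 134 for internal, 817 ± 106 for last and 773 ± 95.8 for first exons, which lay within the spread over libraries. Coding sequence within 100 bases of a transcript start or 200 bases of the stop codon is outside this count, which trims first and last exons more than internal ones.

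Within the internal exons, exon 2 held 699 ± 47.3 peaks per megabase, exon 3 486 ± 45.4, exons 4 to 6 300 ± 28.0 and exon 7 and later ones 235 ± 21.3. When only exons of 400 bases or more were kept, the 4 values were 1098 ± 65.0, 1076 ± 75.9, 965 ± 65.3 and 996 ± 103. With the coding sequence divided into 5 equal parts, the first part held 473 ± 46.7 peaks per megabase, the middle one 376 ± 27.7 and the last one 403 ± 27.6.

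Summits were fewer next to exon junctions. In internal exons of 400 bases or more, 124 ± 37.3 summits per megabase lay in the last 50 bases before the 3′ edge and 298 ± 63.4 in the 50 bases before those (SD, n = 14). The density was 1451 ± 122 at 100 to 150 bases from the 3′ edge, highest at 150 to 200 bases (2173 ± 138), and 887 ± 129 at 450 to 500 bases. On the 5′ side the rise was shallower, from 486 ± 150 in the first 50 bases to 1580 ± 186 at 200 to 250 bases. Over exons of all lengths, 18.2% to 34.9% of summits per library lay within 100 bases of a junction, and in the exons that held these summits, each counted once per summit, 28.2% to 44.7% of the eligible bases lay there. The difference was -10.6 ± 1.40 percentage points and was below 0 in each of the 14 libraries (-12.96 to -9.11). Reads were extended to 150 bases on the genome before peaks were called, so a read ending at a junction is extended into the intron; the part of this step in the profile was not tested.

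**Figure D2:**
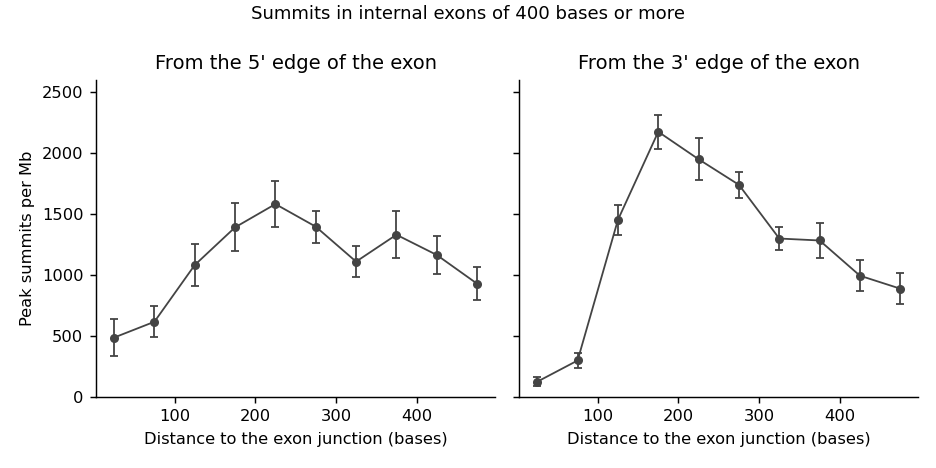
Peak summits per megabase in internal exons of 400 bases or more against the distance from the 5′ edge (left) and the 3′ edge (right) of the exon, in bins of 50 bases. Points are means and bars SD over 14 libraries; the 3′ side climbs from 124 next to the junction to 2173 at 150 to 200 bases.

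GGACU was more frequent at the summits than elsewhere in the same exons. A window of 101 bases around the summit held GGACU in 13.4% to 18.6% of cases per library, and windows of the same width in the same exons, clear of any peak, in 4.74% to 6.17%. Only summits with a window inside the exon and a control window in it were counted. These were 1340 to 2707 per library, lowest in K562 Control 2, of 3839 to 4899 coding-exon peaks. The excess was 10.6 ± 1.84 percentage points (SD, n = 14), above 0 in each library and lowest in the HepG2 WT libraries (7.67 and 7.39) and K562 Control 2 (7.95). For DRACH as a whole, which 76.6% to 80.4% of the control windows held, the excess was 14.8 ± 2.22 points. GGACU was searched on the strand of the gene only, and each match is also a DRACH match.

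Position by position, GGACU stood at 0.201% ± 0.0202 of positions within 10 bases of the summit in exons of 400 bases or more, against 0.130% ± 0.0174 at 101 to 150 bases on the 5′ side and 0.0998% ± 0.00562 at 101 to 150 bases on the 3′ side (SD, n = 14). The rise was broad. The A of GGACU fell on the second position of a codon, as in the aspartate codon GAC, in 53.2% to 57.1% of the motifs at summits and in 46.7% to 54.1% of those in control windows, a difference of 4.44 ± 2.27 points. UGCAUG, the sequence that RBFOX2 is known to bind, stood in 1.33% to 2.64% of summit windows and 1.96% to 2.57% of control windows. AGAUG, a sequence searched because the study names it for RBFOX2, stood in 14.6% to 17.9% and 14.7% to 16.6%. The excess of UGCAUG was above 0 in 4 libraries of 14 and that of AGAUG in 8 of 14. The latter split by line, since it was above 0 in each of the 6 NB4 libraries (0.787 to 2.71 points), in 1 of 6 K562 libraries (-1.14 to 0.4995) and in 1 of 2 HepG2 libraries (-0.720 and 0.418). It was given no test.

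**Figure D3:**
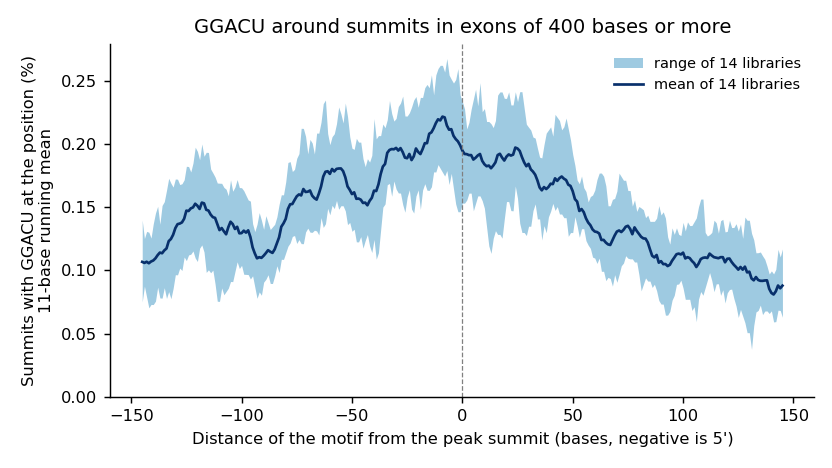
Percent of summits in exons of 400 bases or more with the A of GGACU at each position, as an 11-base running mean, against the distance from the summit in bases. The line is the mean and the band the range of 14 libraries; the values within 10 bases of the summit averaged 0.201%, and those at 101 to 150 bases on the 3′ side 0.0998%.

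Overlapping peaks of the 14 lists were merged by strand into 86263 regions, and 7548 of these, in 4709 genes, had at least as many coding-exon peaks as other peaks. Of the coding-exon regions 1935 (25.6%) were listed in all 14 libraries, against 8.92% of all regions. Without HepG2 WT 2 and K562 Control 2, 1950 coding-exon regions (25.8%) were in the other 12 lists, against 9.10% of all regions. At the other end, 1226 coding-exon regions (16.2%) were in 1 list, against 21.9% of all regions. Of the regions in all 14 lists 91.2% lay in exons of 400 bases or more, with a median exon length of 1168 bases. Of the regions in 1 list 21.9% did, with a median exon length of 205 bases. Any overlap merged peaks, and 1 peak of a library anywhere in the merged region counted as listed. A wide region meets this more easily, and peaks were widest in long exons. The part of region width in these shares was not tested.

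The first exons with the highest ranks in all libraries were those of WDR81, a WD-repeat protein of endosomes, PPP1R9B, which targets protein phosphatase 1, and ARID1A, a subunit of the SWI/SNF remodelling complex. In WDR81 (exon length 3923 bases) the fold was lowest in HepG2 WT 1 (7.70), with a median of 32.3 and a maximum of 55.0 in K562 Control 1. The internal exons were exon 11 of LMTK3, a kinase-like membrane protein, exon 2 of FANCE, a subunit of the Fanconi anaemia core complex, and exon 2 of GPATCH3. FANCE exon 2 is 607 bases long, and its fold ran from 7.04 in HepG2 WT 2 through a median of 19.98 to 61.1 in K562 RBFOX2 KD 2. The last exons were those of DIDO1, ZBTB4, a zinc finger protein that binds methylated CpG, and TAF1C, a subunit of the RNA polymerase I factor SL1. ZBTB4 had a fold between 10.2 and 50.9 (median 35.7), lowest again in HepG2. The single exons were those of CSTF2T, a cleavage stimulation factor, RANBP6, of the importin family, and RBM15B, itself an accessory subunit of the methyltransferase complex. RBM15B ranged from 3.03 in HepG2 WT 1 to 32.3 in K562 RBFOX2 KD 1. In WDR81, DIDO1, TAF1C and RBM15B the lowest fold was that of HepG2 WT 1, the library with the lowest median fold of coding-exon peaks (4.08, against 4.40 in HepG2 WT 2 and 5.82 to 11.9 in the other 12 libraries).

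The longest exons with a region in all 14 lists, counted over the whole exon with its untranslated part, were the last exons of AHNAK (18173 bases), a giant scaffold protein, ZNF891 (17246 bases), CHST12 (15922 bases), a chondroitin sulfotransferase, LCOR (15164 bases), a nuclear receptor corepressor, and PHF3 (14426 bases), which binds RNA polymerase II. The region in AHNAK spanned chr11:62516626-62534216 and had folds between 3.95 and 24.4. That in PHF3 varied most, with percentiles between 3.67 and 99.9.

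Most genes (3106 of 4709) had 1 coding-exon region. Among the largest numbers were those of DST, a cytoskeletal linker (25 regions in 21 of its 104 exons), CENPE, a kinetochore motor (15 regions in 15 of 49 exons), PCNT, a scaffold of the centrosome (14 in 14 of 47), and AKAP9, a scaffold of centrosome and Golgi (14 in 14 of 50). Of these 4 genes CENPE had the shortest longest exon, at 291 bases, and 0 of its regions was in all 14 lists. PCNT had 5 such regions, DST 3 and AKAP9 2.

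Among genes with any peak in a line, those with a coding-exon peak in every list of it made up 31.3% in HepG2, 22.5% in K562 and 23.4% in NB4. Of a list of chromatin regulators, 24 of 26 had one in HepG2, 22 of 27 in K562 and 26 of 27 in NB4. The highest-ranked were CHD7 and CHD8, both chromatin remodellers, ARID1A and ASH1L, a histone methyltransferase, each in all 14 lists. Of the genes of DNA repair 15 of 20, 15 of 20 and 14 of 20 had a peak in every list, led by CLSPN, SLX4, TP53BP1 and WRN, and of those of centrosome and mitosis 14 of 17, 15 of 22 and 15 of 22, led by CDK5RAP2, PCNT, KNL1 and KIF14. KNL1, a kinetochore scaffold, carried its region in an exon of 5001 bases.

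Genes of the m6A pathway had peaks in their own coding exons. A coding-exon peak in every list was present in 9 of 15 in HepG2, 10 of 16 in K562 and 10 of 16 in NB4. The examples were the readers YTHDF2 and YTHDF1 (exon 4 of 5 in both, 1584 and 1521 bases) and the methyltransferase subunits ZC3H13 (exon 10, 465 bases) and RBM15 (exon 1, 2892 bases), all in 14 lists. Zinc finger genes named ZNF, whose fingers mostly lie in a long last exon, had one in 230 of 346 (HepG2), 211 of 382 (K562) and 221 of 366 (NB4), among them ZNF646, ZNF121, ZNF292 and ZNF224. Several of these genes have close copies, so reads may be shared between them.

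Of the cell type markers with any peak in their line, a coding-exon peak in every list was present in 3 of 9 hepatocyte markers in HepG2 (33.3%, against 31.3% of all genes) and in 3 of 11 erythroid markers in K562 (27.3% against 22.5%), and in 0 of 10 myeloid markers in NB4 (against 23.4%). The hepatocyte markers included FGA and FGB, subunits of fibrinogen. The 3 in K562 were ANK1, the ankyrin of the red cell membrane, GATA1, the erythroid transcription factor, and TFRC, the transferrin receptor.

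Some regions belonged to a single line. In every list of HepG2 and no other were 384 coding-exon regions (5.09%, against 4.60% of all regions), in K562 284 (3.76% against 6.33%) and in NB4 164 (2.17% against 3.38%). They too lay mainly in exons of 400 bases or more (62.5%, 68.3% and 74.4%). HepG2 has 2 lists and the other lines 6 each, so the conditions are unequally strict. Without HepG2 WT 2 and K562 Control 2 the numbers were 467 in HepG2 (6.19%, against 5.37% of all regions), 317 in K562 (4.1998% against 7.44%) and 176 in NB4 (2.33% against 3.56%). A further 208 (2.76%) were in every K562 and NB4 list and no HepG2 list, against 2.13% of all regions.

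The highest-ranked regions of HepG2 alone lay in ARHGAP29 (folds 12.3 and 13.2), a GTPase-activating protein, ANKS4B (7.69 and 12.6), a protein of microvilli, and TACC2 (exon 4, 5313 bases), a centrosomal protein. Those of K562 lay in NALF1 (exon 1 of 3, chr13:107865379-107868476, folds 15.3 to 34.1), a subunit of a sodium leak channel, TRPS1 (exon 5 of 7), a GATA-type repressor with folds from 23.7 to 46.9, and COL6A5, a collagen with folds from 20.4 to 47.2. Those of NB4 lay in SYNPO2 (exon 4, 2183 bases, folds 11.7 to 20.99), an actin-binding protein, TMTC2 (exon 3, 829 bases, folds 11.9 to 28.8), a mannosyltransferase, and NLRC3 (exon 5, 1750 bases, folds 9.61 to 17.1), an inhibitor of innate immune signalling. In bulk samples a missing peak cannot be told apart from a missing transcript, since these lists do not measure expression.

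Whether the unmodified lines differed in the share of peaks in coding exons was compared first. It was 17.0% and 16.3% in the HepG2 WT libraries and 11.1% and 11.2% in the K562 WT libraries. The groups did not overlap. The difference was -5.47 percentage points, larger than the pooled SD of 0.316 (p = 0.333 by a two-sided exact permutation test, the smallest possible with 2 against 2, and 0.428 when adjusted over 7 tests). With all lists shortened to the same number of peaks, the highest by -log10 p, the difference was -2.45 points, and without HepG2 WT 2 it was -5.78 points. In NB4 Control the share was 15.3%, 14.7% and 13.99%, and in K562 Control 11.4% and 12.7%, a difference of 2.63 points (p = 0.1 by a two-sided exact permutation test, the smallest possible, and 0.233 when adjusted) that was 1.54 points with lists of equal length. Without K562 Control 2 it was 3.29 points (p = 0.25 by the same exact permutation test, the smallest possible with 3 against 1).

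**Figure D4:**
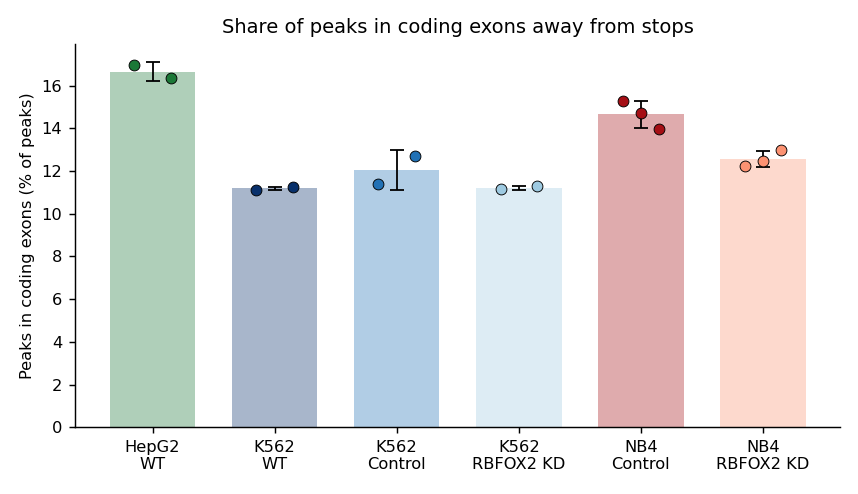
Percent of the peaks of each library that lie in coding exons away from stops, by group; points are libraries, bars the mean and error bars the SD (n = 2 or 3). HepG2 WT lies highest (16.3% and 17.0%), and the 3 NB4 RBFOX2 KD libraries lie below the 3 NB4 Control libraries.

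The height of coding-exon regions differed between K562 WT and HepG2 WT in many cases. Folds in the K562 WT lists were higher, by 1.04 on the log2 scale in the median region, and this shift was removed by centring each library on its median. Of 2712 coding-exon regions with a peak in all 4 WT libraries, 431 were then higher in K562 and 395 lower (limma, adjusted p under 0.05), or 15.9% and 14.6%, against 13.9% and 18.5% of all 13184 regions tested. Both directions together came to 30.5% of the coding-exon regions, against 32.4% of all regions. Ranked by percentile of -log10 q instead, 583 were higher (21.5%, against 24.1% of all regions) and 191 lower (7.04% against 7.27%). Without K562 WT 1 the total fell from 826 to 138 (5.09% against 6.03%), and without K562 WT 2 to 145 (5.35% against 5.51%). Without HepG2 WT 2, 435 were higher and 311 lower (16.0% and 11.5%, against 12.8% and 14.99% of all regions).

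Of the regions higher in K562, the 3 with the largest moderated t lay in ZNF552, a zinc finger gene, SYNJ2, an inositol phosphatase, and FAT1, a large cadherin. In ZNF552 the folds were 1.79 and 2.15 in HepG2 WT and 20.7 and 21.8 in K562 WT, a centred log2 difference of 2.39 ± 0.149 (SE, limma adjusted p = 0.00532). In FAT1 exon 2 (3283 bases) they were 2.18 and 2.87 against 22.9 and 20.2. Lower in K562 were SETBP1 exon 2, with folds of 11.4 and 15.2 against 4.18 and 4.61 (centred log2 difference -2.63 ± 0.163, SE, limma adjusted p = 0.00532), PLIN4, which coats lipid droplets, with 8.47 and 11.1 against 3.87 and 3.98, and RGPD8, whose near-identical copies make its value uncertain. Presence differed as well. Of 6424 coding-exon regions in the WT lists, 645 (10.0%) had a peak in both HepG2 and no K562 library, against 10.0% of all regions, and 1485 (23.1%) the reverse, against 38.0%. Without HepG2 WT 2 the numbers were 723 of 5920 (12.2% against 12.6%) and 1862 (31.5% against 44.9%). The K562 WT lists were also the longer ones. With lists of equal length, 888 of 5071 coding-exon regions (17.5%, against 19.2% of all regions) were in HepG2 alone. In K562 alone were 673 (13.3% against 23.3%), so the split turned in coding exons but not over all regions.

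The knockdown libraries address whether m6A on caRNA changes when RBFOX2 is depleted, here in coding exons. The extent of the knockdown cannot be read from peak lists and was not analysed here. In NB4 the share of peaks in coding exons was 15.3%, 14.7% and 13.99% in Control and 12.2%, 12.5% and 12.97% in KD, without overlap. The difference was -2.10 percentage points, larger than the pooled SD of 0.525 (p = 0.1 by a two-sided exact permutation test, the smallest that 3 against 3 allows, and 0.233 when adjusted). In K562 it was 11.4% and 12.7% in Control and 11.2% and 11.3% in KD, also without overlap. The difference was -0.816 points (p = 0.333 by a two-sided exact permutation test, the smallest that 2 against 2 allows, and 0.428 when adjusted). Without K562 Control 2 the K562 difference was -0.154 points, and without K562 Control 1 it was -1.48 points. In lists of equal length the K562 shares did overlap, with 14.049% and 15.7% in Control and 14.0535% and 13.8% in KD. The difference was then -0.945 points (p = 0.667 by the same exact permutation test).

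Over both lines the mean difference was -1.46 points, and all 5 KD libraries lay below the mean of their own Control group (p = 0.0167 by a two-sided exact permutation test stratified by line, the smallest possible, and 0.117 when adjusted over 7 tests, which misses 0.05). The difference between the lines was 1.28 points (p = 0.367, 0.428 when adjusted, by a two-sided stratified exact permutation test). In NB4 the share moved with the length of the lists. Control lists held 31603 ± 1961 peaks and KD lists 38009 ± 1542 (SD, n = 3), whereas coding-exon peaks numbered 4624 ± 106 and 4769 ± 81.8. With lists of equal length the NB4 difference was -1.12 points and that over both lines -1.03 points (p = 0.0333 by the same exact permutation test). Effective reads were 10.8 and 14.1 M in NB4 Control 1 and 2 and 16.8 to 21.9 M in NB4 KD. The part of depth in the difference was not tested.

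The mix of exons did not move in 1 direction. The share of coding-exon peaks in exons of 400 bases or more was 82.6%, 79.1% and 79.5% in NB4 Control and 75.0%, 76.5% and 76.1% in NB4 KD, which did not overlap. In K562 it was 77.0% and 62.4% in Control and 75.4% and 78.6% in KD, which did. The mean difference over both lines was 1.39 points (p = 0.983 before and after adjustment, stratified exact permutation test), and -2.26 points without K562 Control 2. In NB4 the density in exons under 200 bases was 56.3 ± 7.58 peaks per megabase in Control and 73.0 ± 1.67 in KD (SD, n = 3). In exons of 400 bases or more it was 1016 ± 16.3 and 990.2 ± 5.24. These 2 densities were given no test of their own.

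Region by region, no change of height passed the threshold on knockdown. In K562, 0 of 3396 coding-exon regions with a peak in all 4 libraries passed (limma, adjusted p under 0.05), as did 0% of all 25266 regions, and 135 (3.98%, of which 31 were higher and 104 lower in KD) had an unadjusted p under 0.05, against 3.96%. Without K562 Control 2, 0 passed and 204 (6.01%, of which 110 were higher) had an unadjusted p under 0.05, against 5.79% of all regions, so the split between the directions rested on that library. In NB4, 0 of 3190 passed, as did 0% of all 18123 regions, and 380 (11.9%, of which 212 were higher in KD) had an unadjusted p under 0.05, against 13.9%. On simulated data a log2 change of 1 was recovered at 21% of regions in the K562 design and 27% in the NB4 design, and a change of 2 at 98% and 100%. The simulation changed 200 regions, all upward, with noise drawn independently for each library. In that setting changes of the smaller size were mostly not detected. Recovery with other numbers of changed regions, or with deviations shared within a library, was not tested.

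The largest moderated t in K562, though not past the threshold, belonged to ARHGAP35, a GTPase-activating protein, in exon 2 (3869 bases). Its folds were 16.3 and 11.4 in Control and 42.8 and 46.8 in KD, a centred log2 difference of 1.60 ± 0.271 (SE, limma adjusted p = 0.9995). STEAP1B (6.04 and 7.74 against 18.6 and 18.1) and LRRC8B, a subunit of volume-regulated anion channels (16.2 and 16.8 against 38.3 and 41.6), followed. Lower in KD were ANK1 exon 31 (8.65 and 8.78 against 3.95 and 3.04), PBRM1, a subunit of the PBAF complex (10.8 and 11.5 against 2.88 and 5.20), and PKN2, a protein kinase (12.99 and 13.9 against 4.40 and 6.48). In each of the 6 regions the Control and KD libraries were apart, which follows from choosing the largest moderated t, and none passed adjustment.

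In NB4 the highest were ZNF331, ZNF43 and BICD2, an adaptor of dynein. ZNF331 had folds of 7.73, 8.16 and 6.87 in Control and 16.9, 26.1 and 27.0 in KD, a centred log2 difference of 1.59 ± 0.237 (SE, limma adjusted p = 0.162). BICD2 exon 5 had 6.12, 5.02 and 4.31 against 12.6, 11.1 and 14.8. The lowest were IFIT2, an interferon-induced gene (12.3, 13.4 and 10.7 against 4.61, 5.35 and 5.14), DGKE, a diacylglycerol kinase (10.3, 8.57 and 10.1 against 4.02, 3.43 and 4.91), and TULP4 (23.9, 21.9 and 18.3 against 9.83, 8.22 and 10.4). None passed adjustment here either, and ZNF331 and ZNF43 belong to gene families with close copies.

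**Figure D5:**
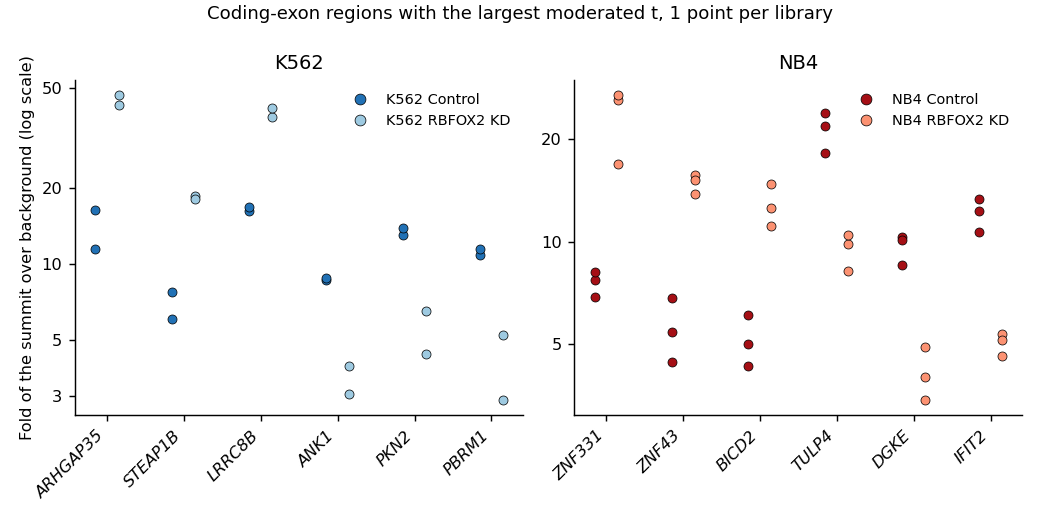
Fold of the summit over background (log scale) in each Control and KD library for the 3 coding-exon regions with the largest positive and the 3 with the largest negative moderated t, in K562 (left, n = 2 and 2) and NB4 (right, n = 3 and 3). The regions were chosen for their difference in these libraries, so the Control and KD points of each gene do not overlap. None of the 12 regions passed adjustment.

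By presence, 86 of 5256 coding-exon regions in K562 (1.64%) had a peak in both Control and no KD library, against 1.74% of all regions, and 28 (0.533%) the reverse, against 1.76%. Of the 86, 31.4% lay in exons of 400 bases or more. The split depended on single libraries. Without K562 Control 2 it was 174 in Control alone (3.82%, against 5.83% of all regions) and 142 in KD alone (3.12% against 4.64%), and without K562 RBFOX2 KD 2 it was 129 (2.50% against 2.78%) and 125 (2.42% against 6.38%). Without K562 Control 1 it was 911 (17.8% against 14.03%) and 78 (1.53% against 7.30%), and without K562 RBFOX2 KD 1 it was 302 (5.91% against 6.20%) and 74 (1.45% against 5.22%). The highest-ranked in Control alone were PPM1F, a protein phosphatase (folds 8.04 and 10.2), and NDOR1, an oxidoreductase (6.92 and 13.6), and in KD alone SNRPD2, a core spliceosomal protein (7.68 and 9.53), and HELZ, a helicase (4.63 and 10.5).

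In NB4, 31 of 5631 coding-exon regions (0.551%) had a peak in every Control and no KD library, against 0.610% of all regions, and 86 (1.53%) the reverse, against 3.68%. With lists of equal length the numbers were 66 (1.49%, against 1.66% of all regions) and 42 (0.949% against 2.05%), so the split turned in coding exons but not over all regions. Without any 1 of the 6 libraries the number in Control alone was between 37 and 70 (0.664% to 1.26%, against 0.874% to 1.42% of all regions). That in KD alone was between 115 and 200 (2.08% to 3.59%, against 4.61% to 7.19% of all regions). Of the 31, 77.4% lay in exons of 400 bases or more, and of the 86, 47.7%. The examples were INHBA, a subunit of activin (folds 12.5, 8.70 and 7.46), and ZNF251 in Control, and GAS8, a ciliary protein (7.17, 6.55 and 6.91), and MDN1 exon 87 of 102, a factor of ribosome assembly (3.30, 4.74 and 5.46), in KD.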

How the data were processed

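MeRIP-seq of caRNA was analysed from 14 deposited peak lists, 1 per immunoprecipitated library. Per the labels, reads were trimmed with Trimmomatic 0.39, aligned to hg38 with HISAT2 2.1.0 and handled with SAMtools 1.9, and the authors called peaks on each strand with MACS2, with reads extended to 150 bases. Whether the input was the background is not given in the sources used here. The deposited values are the fold of the summit over background (a ratio), -log10 p, -log10 q and a score; the smallest -log10 q was 2.00. They are not counts, so no count model was fitted. Effective reads were recovered from fold and p of each summit.

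Exons were taken from GENCODE release 44 (hg38), whose chromosome ends no peak passed (0 of 495694). Coding length counted only eligible bases of genes with a peak in the library. Peaks of a comparison were merged by strand into regions, and the log2 fold of the summit, centred on the median, was tested with limma 3.58.1 (R 4.3.3) on all regions with a peak in every library, with Benjamini-Hochberg adjustment, after a check on simulated data. Shares were compared by exact permutation of libraries, stratified by line where both lines were used, and adjusted over 7 tests. Python 3.11.15, pandas 2.3.3, pysam and matplotlib 3.10.9 were used.

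Regions were named by rule: the 3 highest-ranked per exon order in all 14 lists, the 3 highest-ranked per line alone, the 5 longest exons, the 5 genes with most regions, the 3 largest moderated t in each direction and the 2 highest-ranked per presence class, and up to 4 genes per gene list. Some items that the rule names are not reported here. The WT comparison was treated like the knockdown comparisons. The peaks and the gene lists were chosen with earlier results of these data known. Groups came from the labels. The alternatives tried are given in the closing section.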

Additional observations from a re-analysis of the deposited data

Results flagged for a closer look

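The effect of knockdown on the mix of exons differed between the lines by the unadjusted test only. The share of coding-exon peaks in exons of 400 bases or more was higher in KD by 7.30 percentage points in K562 and lower by 4.52 points in NB4 (KD minus Control -4.52), a difference between the lines of 11.8 points (p = 0.0333 by a two-sided stratified exact permutation test, 0.05 when adjusted over 3 tests of this kind, chosen after seeing the data, which is not under 0.05). The ratio of peak density in long over short exons differed between the lines in the same way, by 10.4 (p = 0.0333 by the same exact permutation test, 0.05 when adjusted). Both rest on K562 Control 2, without which the K562 difference in the share was -0.0095 points and the differences between the lines were 4.51 points (exact permutation p = 0.2) and 5.85 (exact permutation p = 0.15). With lists of equal length they were 8.78 points (exact permutation p = 0.0833) and 13.1 (exact permutation p = 0.1). The third such test, of the number of coding-exon peaks, gave a difference of -523.5 peaks (exact permutation p = 0.15).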

How the results depend on the processing

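Of 150 recomputed values 127 were taken as kept. Shares among these kept their direction and side of the threshold, and density ratios, junction differences and motif excesses moved by less than the spread. Counts of regions stayed within a fixed ratio of the main count, so a moderate change of a count is among the kept ones. The other 23 are given here. For shares the threshold was set on unadjusted p. The smallest possible exact permutation p was 0.333 in K562 and between the WT lines. It was 0.1 in NB4 and between the Control groups. Those shares could not cross the threshold, so for them only the direction was checked. The share over both lines was under it only before adjustment (exact permutation p = 0.117 after). With the replicate block (sign flips within replicate number) the share of peaks in coding exons over both lines gave the same difference of -1.46 points. The exact sign flips gave p = 0.0625, the smallest they allow, so this share could not be under the threshold with the block. In limma with the block 1 coding-exon region of K562 passed. Same-numbered libraries did not deviate together (correlations from -0.112 to 0.00609), and the block changed no other call. With lists of equal length the density ratio of long to short exons was 18.1 and the junction difference -11.9 points; with the middle of the peak in place of the summit the ratio was 20.7 and the GGACU excess 7.89 points. Within 200 bases of a junction the difference was -4.86 points, and DRACH gave an excess of 14.8 points. Leaving out 1 library at a time, the share of long exons over both lines ran from -2.26 points (without K562 Control 2, the direction reversed) to 5.04, the changed regions in K562 from 0 to 1, those between the WT lines from 138 to 746, the regions lost or gained in K562 from 254 to 989 and in NB4 from 185 to 266. An overlap of at least 50% gave 201 regions lost or gained in NB4 (lost 0.817% and gained 2.75%, against 0.744% and 4.71% of all regions). In K562 the shares lost and gained were 2.50% and 2.42% without K562 RBFOX2 KD 2, against 2.78% and 6.38%. They were 17.8% and 1.53% without K562 Control 1, against 14.03% and 7.30%. In NB4 they were 1.26% and 2.08% without NB4 Control 1, against 1.42% and 4.61%. Without NB4 Control 3 they were 1.19% and 3.59%, against 1.33% and 7.19%. The shares between the WT lines are given above. The cause of these changes was not tested, save that fewer libraries make the presence rule easier to meet. Leaving out HepG2 WT 2 and K562 Control 2, chosen after seeing the data, gave a ratio of 14.9, a junction difference of -10.7 points and a GGACU excess of 11.1 points. Peak lists leave regions below the caller's threshold unseen, so absence of a peak is not absence of m6A, and 2 or 3 libraries per group limit every test within a line.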
